A study of Sorghum bicolor with 64 samples.

Results

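Homeobox genes encode transcription factors that share a DNA-binding homeodomain, and 53 of the 18832 sorghum genes listed in the stem or leaf expression tables carried a description that named the homeobox, the homeodomain or a homeodomain family. Genes of the zinc-finger homeodomain type were left out. Of the 53 genes, 19 fell in the HD-ZIP family, in which a leucine zipper follows the homeodomain, 21 in the KNOX/BEL family, 1 in the WOX family and 12 in none of these. Of the 21 KNOX/BEL genes, 17 were placed there by a protein family code alone. Their descriptions name neither KNOX nor BEL, and they are called KNOX or BEL genes here. For 3 of the 12 the word stood in the description without a plant family, and 1 of these 3, *Sobic.001G091400*, names a PHD (plant homeodomain) finger, which is not itself a homeodomain. Another 3 of the 12 are of the MYB type and are described only as homeodomain-like. They are counted with the homeobox genes by that word alone. The stem table held 44 of the 53 genes among 16942 genes and 39 were in the table for leaves among 16386 genes. The choice among listed genes rested on the descriptions and used no expression value, but earlier results of these data were known. Listing itself depended on expression, since every listed gene had more than 3 TPM in at least 2 samples.

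The samples came from field-grown near-isogenic lines of the *D* (Dry Stalk) locus in the Tx623 background. *DD* plants carry the dominant wild-type allele of the NAC gene SbNAC074A, and *dd* plants carry the recessive allele, which encodes a truncated transcription factor. Heads were removed at anthesis or left intact as the control, and plants were sampled 3 or 10 d later, so that genes linked to sugar accumulation in the stem could be sought. Internode 4, counted downwards, gave the stem tissue once its outer layer had been peeled away, and a mid-blade piece from a leaf below the flag leaf gave the leaf tissue. All plants stood in 1 field in 1 summer. The allele cannot be told apart from any other difference between the near-isogenic lines.

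Some KNOX proteins keep cells of shoot meristems undifferentiated and shape internodes, and KNOX proteins act as dimers with BEL1-like proteins. In maize and Arabidopsis, some KNOX proteins raise cytokinin and lower gibberellin. Class III HD-ZIP proteins pattern vascular tissue and the upper side of leaves in Arabidopsis, class IV members act in the epidermis, and class I and II members respond to water supply, abscisic acid, light and auxin. WOX proteins are best known for maintaining stem cells, although WOX13 belongs to an old branch that is expressed more broadly.

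There were 29 stem samples, in 5 groups of 4 and 3 groups of 3, and 24 leaf samples in 8 groups of 3. Values were TPM, a level scaled by transcript length and library total, which sum to between 994406 and 996581 in each stem column and between 994771 and 995806 in each leaf column and keep no sequencing depth. SbXCP1 (*Sobic.007G172100*), a xylem cysteine peptidase gene, was listed at 0.0744 to 84.1 TPM in *DD* stems and at 0 to 0.355 TPM in *dd* stems, so these ranges overlapped only at the low end. In leaves its levels gave no such check, at 0.0893 to 41.3 TPM in *DD* (median 1.65) and 0.190 to 34.7 TPM in *dd* (median 9.57). The targeted gene SbNAC074A (*Sobic.006G147400*) gave no check of the labels, because the *dd* allele shortens the protein and the transcript was read in both genotypes (medians of 8.79 TPM in *DD* and 4.82 TPM in *dd*). In stems, replicates 3 and 4 of the *dd* control at 10 d stood apart from the other samples of their group on the first principal component, at -18.5 and -9.83 against 28.9 and 36.0. Leaf groups were spread widely on that component, replicates 2 and 3 of *DD* head removal at 3 d among them (-29.5 and -27.5, with 16.6 for the third sample) but also the *dd* control at 3 d (58.6, 30.7 and -5.37), the *DD* control at 10 d (-13.5, 35.5 and -3.74) and *dd* head removal at 3 d (18.7, -29.5 and -19.1). The rubisco small chain *Sobic.005G042000*, a marker of photosynthetic tissue, averaged 371 TPM in stems and 1425 TPM in leaves.

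The homeobox genes were a mixed set in level. Over the 29 stem samples their mean TPM summed to 3390, with 11 genes over 100 TPM, 6 under 10 TPM and a median of 52.3 TPM. Over the 24 leaf samples the sum was 1893, with 5 genes over 100 TPM, 13 under 10 TPM and a median of 13.3 TPM. The 3 highest genes carried 28.7% of the summed mean TPM in stems and 45.6% in leaves. Of the 30 genes listed in both organs, 22 had the higher listed TPM in the stem and 8 in the leaf. The same count was not made over all genes, so this is not read as a trait of homeobox genes. Stems and leaves were analysed separately, so stem and leaf levels are set side by side here and were not tested.

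Which genes were listed differed by family. Both organs listed 30 of the 53 homeobox genes and 14496 of all 18832 genes. Of the 21 KNOX/BEL genes, 10 were listed in both organs, 9 in the stem only and 2 in the leaf only. Both genes described as KNOX proteins by name were listed in the stem only: *Sobic.001G106200* (described as KNOTTED-1-LIKE 1), at a mean of 247 TPM, and *Sobic.001G526200* (KNOTTED-1-LIKE 7), at 26.1 TPM. Maize knotted1 and its relatives act in meristems and developing internodes. Of the 19 HD-ZIP genes, 10 were listed in both organs, 2 in the stem only and 7 in the leaf only. All 5 class IV genes were listed in the leaf only, at means from 4.504 TPM for *Sobic.003G096300* to 23.1 TPM for *Sobic.006G223300*, which is described as homeodomain GLABROUS 2 (HDG2), a protein that acts in stomata and leaf hairs of Arabidopsis. *Sobic.007G032100* and *Sobic.002G270900* averaged 4.72 and 4.76 TPM, so with *Sobic.003G096300* they lay near the 3 TPM needed for listing. The stem tissue had lost its outer layer, and whether this bears on the listing was not tested.

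Of the 4 class III genes, 3 were listed in both organs, each higher in the stem, and *Sobic.003G028300* was listed in the leaf only, at 8.94 TPM. *Sobic.001G157400*, a class III gene by its MEKHLA domain, had a mean of 379.5 TPM in stems, the highest among the homeobox genes there, and 13.3 TPM in leaves. *Sobic.001G537300*, of the same class, had 104.5 TPM in stems and 10.5 TPM in leaves, and *Sobic.001G217200* 19.3 and 6.63 TPM. In leaves the highest homeobox gene was *Sobic.007G126400*, an HD-ZIP gene of no stated class, at 372 TPM, followed by *Sobic.004G251300* (described as related to ATHB-54, a class I protein of Arabidopsis) at 249 TPM and *Sobic.010G207500*, a KNOX or BEL gene, at 242 TPM. The single WOX gene, *Sobic.003G336600* (described as WOX13), had 21.9 TPM in stems and 5.19 TPM in leaves.

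**Figure D1:**
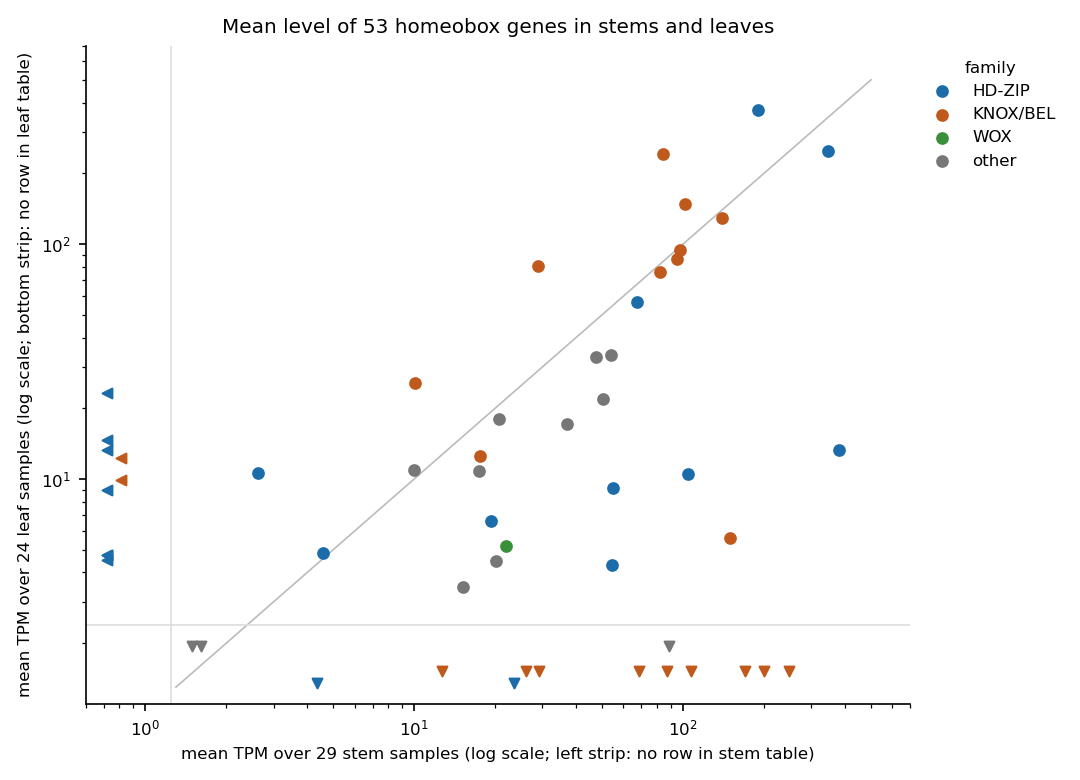
Mean TPM of each of the 53 homeobox genes over 29 stem samples (x axis, log scale) and 24 leaf samples (y axis, log scale), coloured by family, with genes listed in 1 organ only drawn in the side strips. Of the 30 genes listed in both, 22 have the higher listed TPM in the stem, and the strip for genes absent from the leaf table holds 9 of the 21 KNOX/BEL genes.

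Removing the head was followed by lower levels of many homeobox genes in the stem. A gene was taken to have changed when its adjusted p in limma's fit of treatment, genotype and day across all genes was under 0.01, with differences on the log2(TPM + 1) scale. Of the 44 genes, 19 fell and 2 rose. Of all 16942 stem genes tested, 23.5% fell and 14.4% rose. The median log2 difference was -0.25 for the homeobox genes and -0.06 for all genes. By family, 11 of 19 KNOX/BEL genes fell and 0 rose in limma, with 2 of the latter direction at an unadjusted p under 0.05. In the HD-ZIP family 6 of 12 fell and 1 rose, the WOX gene fell, and among the 12 remaining genes 1 fell and 1 rose. The family medians were -0.51 for KNOX/BEL, -0.42 for HD-ZIP, -0.76 for the WOX gene and -0.12 for the others.

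The summed level moved in the same direction. The 44 genes summed to 3247 to 4520 TPM in the 15 control stems, with a median of 3702 TPM, and to 2487 to 3494 TPM in the 14 head-removal stems, with a median of 2964 TPM. The KNOX/BEL sum had a median of 1962 TPM in control and 1509 TPM in head-removal stems, and the HD-ZIP sum 1389 TPM and 1045 TPM. The genes of no named family summed to a median of 356 TPM in control and 378 TPM in head-removal stems. In bulk tissue, fewer cells of a type and less RNA per cell cannot be told apart.

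**Figure D2:**
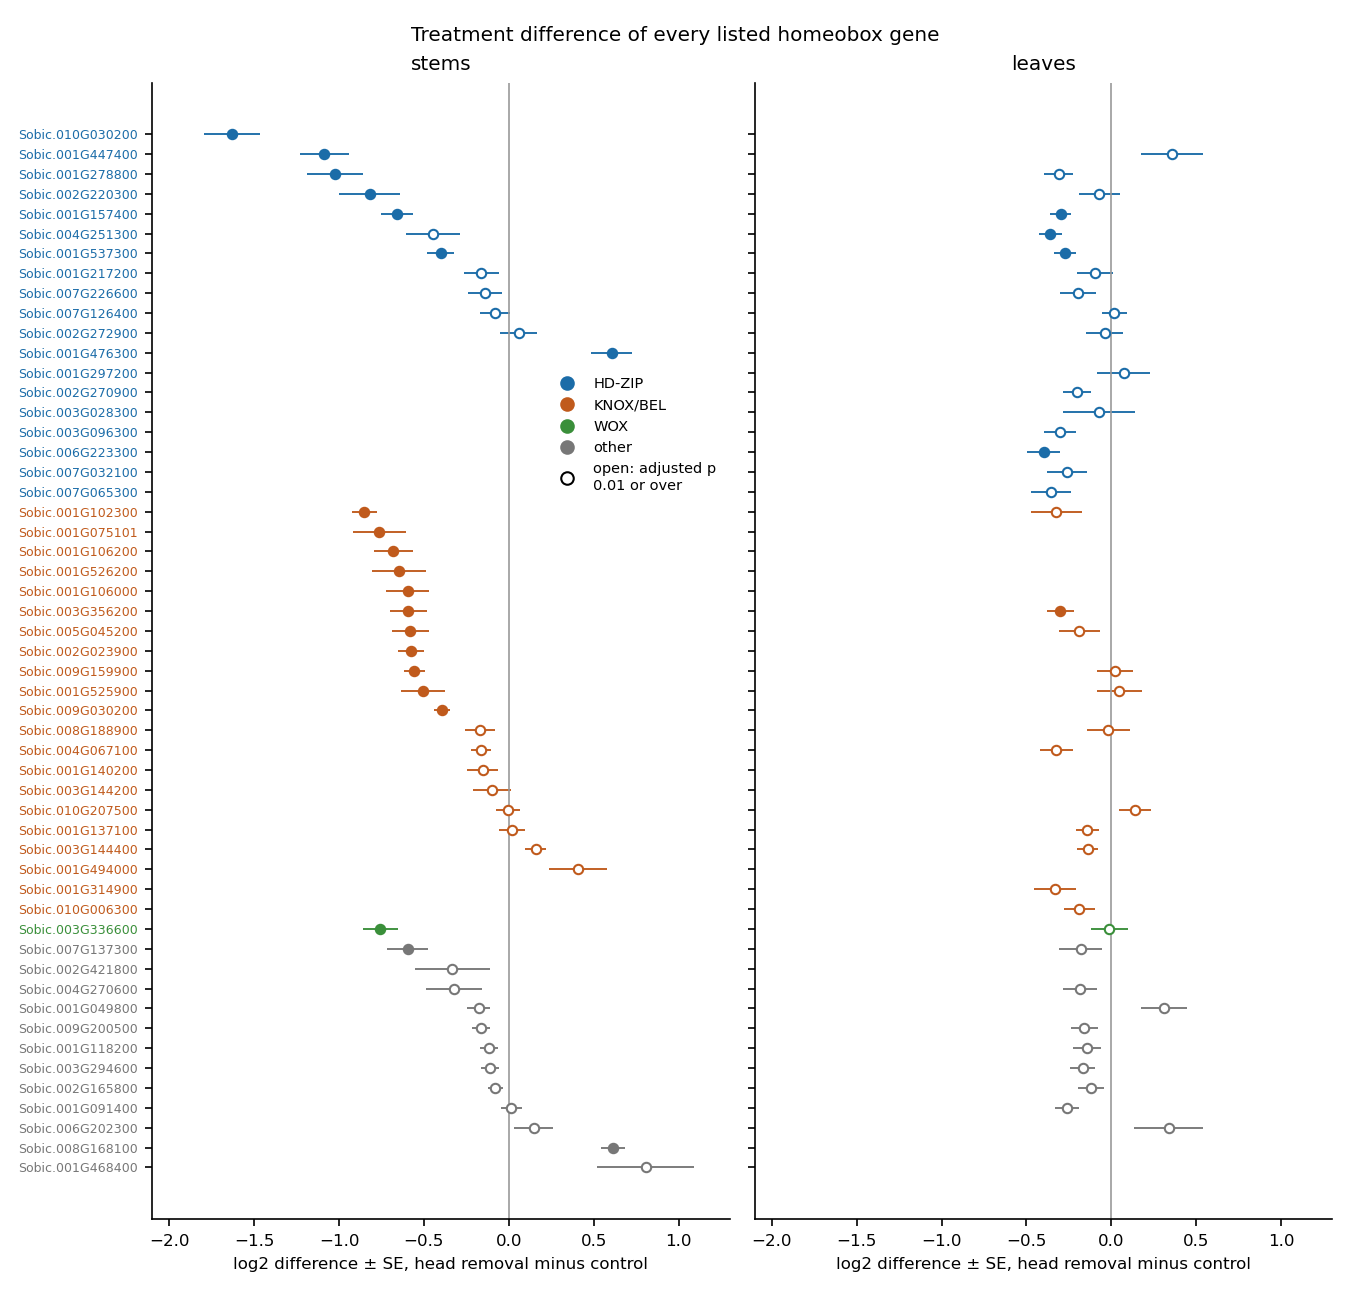
Log2 difference between head removal and control (x axis, log2(TPM + 1) scale, with its standard error) for each listed homeobox gene (rows) in stems and leaves, coloured by family, with filled points for an adjusted p under 0.01. In stems 19 filled points lie left of 0 and 2 right of it, and in leaves 5 lie left and 0 right.

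Among HD-ZIP genes, the 3 stem differences of at least 1 on the log2 scale were all decreases. *Sobic.010G030200*, which has a homeobox-associated leucine zipper (HALZ) domain, ranged from 4.19 to 19.2 TPM in control stems (median 5.35) and from 0.605 to 4.75 TPM after head removal (median 1.21). Its ranges overlapped through 1 head-removal sample, replicate 1 of *DD* at 3 d. The log2 difference was -1.63 ± 0.17 (SE, adjusted p = 1.38e-08). Every listed gene had more than 3 TPM in at least 2 samples. Only 1 head-removal stem of *Sobic.010G030200* reached that level. The gene was listed through control stems, so its treatment test is not independent of its listing. The same holds for *Sobic.002G220300*, another HD-ZIP gene that fell. *Sobic.001G447400* had 44.4 to 105 TPM in control stems (median 69.3) and 20.6 to 53.01 TPM after head removal (median 32.6), and only the lowest control and highest head-removal samples overlapped. Its log2 difference was -1.09 ± 0.15 (adjusted p = 9.25e-07). *Sobic.001G278800*, described as HAT22, a class II protein of Arabidopsis, had 54.9 to 138 TPM in control stems (median 90.1) and 21.3 to 69.2 TPM after head removal (median 39.9). These ranges overlapped, and the log2 difference was -1.03 ± 0.17 (adjusted p = 1.21e-05).

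Of the 3 most abundant HD-ZIP genes of the stem, 1 passed the test. The class III gene *Sobic.001G157400* had 314 to 699 TPM in control stems (median 426) and 191 to 473 TPM after head removal (median 275), a log2 difference of -0.66 ± 0.09 (adjusted p = 1.74e-06) with overlapping ranges. *Sobic.004G251300* had 224 to 621 TPM in control (median 358) and 152 to 712 TPM after head removal (median 248), and its log2 difference of -0.45 did not pass the test (adjusted p = 0.0209). *Sobic.007G126400* had 134 to 253 TPM in control and 130.3 to 269 TPM after head removal, with a log2 difference of -0.08 (adjusted p = 0.441). Of the 3 class III genes in stems, a second one also fell, *Sobic.001G537300*, by 0.40 on the log2 scale (adjusted p = 0.000165).

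The HD-ZIP gene that rose was *Sobic.001G476300*, also a HALZ gene, which was picked out after its values were seen. It had 9.14 to 28.7 TPM in control stems (median 18.0) and 12.1 to 42.0 TPM after head removal (median 30.03). The ranges overlapped, since *DD* control stems lay at 19.0 to 28.7 TPM and *dd* head-removal stems at 12.1 to 32.5 TPM. The log2 difference was 0.61 ± 0.12 (adjusted p = 0.000179).

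All 11 KNOX/BEL genes that changed in stems fell, by between 0.40 and 0.85 on the log2 scale. *Sobic.001G106200*, the KNOTTED-1-LIKE 1 gene and the highest of the family, had 209 to 479 TPM in control stems (median 278) and 112 to 256 TPM after head removal (median 197). Its log2 difference was -0.68 ± 0.11 (adjusted p = 1.9e-05). *Sobic.002G023900*, placed in the family by its code alone, had 189 to 322 TPM in control stems (median 228) and 114 to 186 TPM after head removal (median 158). Every control sample was above every head-removal sample, and the log2 difference was -0.58 ± 0.08 (adjusted p = 9.35e-07). *Sobic.009G030200* had 162 to 239.9 TPM in control stems (median 188) and 121 to 174 TPM after head removal (median 150.3), with overlap over 162 to 174 TPM and a log2 difference of -0.40 ± 0.05 (adjusted p = 1.87e-07).

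A second gene with no overlap, *Sobic.001G102300*, was chosen after its values were seen. It is a KNOX or BEL gene and had 30.4 to 50.5 TPM in control stems (median 35.7) and 14.8 to 27.1 TPM after head removal (median 20.9). The log2 difference was -0.85 ± 0.07 (adjusted p = 8.25e-10). Of the 44 homeobox genes, 2 showed no overlap between the 15 control and 14 head-removal stems, *Sobic.001G102300* and *Sobic.002G023900*, and of all stem genes 1.09% showed none. The KNOTTED-1-LIKE 7 gene *Sobic.001G526200*, whose Arabidopsis relative KNAT7 acts on secondary walls, had 17.6 to 65.0 TPM in control stems and 8.08 to 32.6 TPM after head removal, a log2 difference of -0.64 ± 0.16 (adjusted p = 0.00139). Of the 2 BEL1-like genes of the stem, *Sobic.008G188900* had medians of 103 TPM in control and 95.7 TPM after head removal (adjusted p = 0.106), and *Sobic.001G494000* 9.71 and 15.3 TPM (adjusted p = 0.0487), so neither passed. Identifiers next to each other, such as *Sobic.001G106000* and *Sobic.001G106200* (both lower) or *Sobic.001G525900* and *Sobic.001G526200* (both lower), may belong to similar copies that share reads, so each value of such a pair is uncertain.

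The other KNOX or BEL genes that fell in stems spanned a wide range of levels. *Sobic.009G159900* had 126 to 237 TPM in control stems (median 169.8) and 69.5 to 189 TPM after head removal (median 111), a log2 difference of -0.56 ± 0.06 (adjusted p = 5.81e-08). *Sobic.005G045200* had 110.3 to 258 TPM in control (median 160.3) and 57.9 to 184 TPM after head removal (median 112), a log2 difference of -0.58 ± 0.11 (adjusted p = 8.79e-05). Both pairs of ranges overlapped, with the lowest values in *dd* head-removal stems. *Sobic.001G075101* had medians of 30.1 TPM in control and 17.8 TPM after head removal and fell by 0.76 on the log2 scale. *Sobic.003G356200* had medians of 18.5 and 12.2 TPM and fell by 0.59, and *Sobic.001G525900* had medians of 12.3 and 8.31 TPM and fell by 0.51. By contrast, *Sobic.010G207500* (medians of 82.7 and 83.9 TPM) and *Sobic.001G137100* (97.6 and 90.8 TPM), also KNOX or BEL genes, did not pass.

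The WOX13 gene *Sobic.003G336600* had 21.4 to 36.1 TPM in control stems (median 27.7) and 9.21 to 23.995 TPM after head removal (median 16.2). The control range was reached only by head-removal samples of *DD* at 3 d. The log2 difference was -0.76 ± 0.10 (adjusted p = 7.49e-07). Outside the named families, *Sobic.008G168100*, described as a homeobox transcription factor of no named family, was the only one to rise. It had 44.9 to 86.7 TPM in control stems (median 67.3) and 70.3 to 138 TPM after head removal (median 111), a log2 difference of 0.61 ± 0.07 (adjusted p = 1.06e-07). *Sobic.007G137300*, a homeodomain-like gene of the MYB type, fell by 0.60 (adjusted p = 0.000217). The most abundant of the others did not pass: *Sobic.001G118200* (CUTL) had medians of 57.2 TPM in control and 50.7 TPM after head removal, and *Sobic.001G091400* (PHD Oberon domain) 50.7 and 51.9 TPM.

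Within each genotype and day, the number of homeobox genes past the test differed. At 3 d in *DD* stems 2 of 44 genes passed and both fell (1.48% of all genes passed in either direction). At 10 d in *DD* stems 10 passed, 8 down and 2 up (11.2% of all genes). In *dd* stems 11 passed at 3 d, 10 down and 1 up (10.6% of all genes), and 13 passed at 10 d, 12 down and 1 up (14.5% of all genes). The median log2 differences were -0.10, -0.34, -0.28 and -0.36 in that order. These counts rest on 3 or 4 samples a group and moved when 1 sample was left out. The *DD* count at 3 d was 1 without control replicate 2 or 3 or head-removal replicate 2 or 3. At 10 d the *DD* count was 5, 2 and 6 without control replicate 1, 2 and 3, and 4, 4 and 6 without head-removal replicate 1, 2 and 4. The *dd* count at 3 d was 5 without control replicate 1, 5 without head-removal replicate 1 and 4 without head-removal replicate 3.

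The differences between these 4 combinations were not shown by the tests of interaction. In limma, 0 of 44 genes passed for treatment by day (0.0472% of all stem genes) and 0 for treatment by genotype (0% of all stem genes), with 7 and 4 genes at an unadjusted p under 0.05. The lowest adjusted p was 0.0755, for treatment by day in *Sobic.010G207500*, a KNOX or BEL gene whose difference was 0.46 lower on the log2 scale at 10 d than at 3 d. The direction was shared more widely than the calls. In all 4 combinations 25 of 44 genes had the lower mean log2 level after head removal, among them 13 of 19 KNOX/BEL and 7 of 12 HD-ZIP genes, while 5 genes were higher in all 4 and 14 were mixed. Stem genes in general also tended to be lower. In single combinations 9167 to 10545 of all 16942 genes were lower, and 32 to 35 of the 44 homeobox genes. How many of all genes were lower in all 4 was not counted.

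2 genes fell in each of the 4 combinations, *Sobic.010G030200* and *Sobic.001G102300*, and 0.897% of all stem genes passed in all 4 in either direction. For *Sobic.010G030200* the *DD* stems at 3 d read 4.76, 11.01, 19.2 and 7.41 TPM in control and 4.75, 1.28, 2.17 and 2.50 TPM after head removal, and at 10 d 5.07, 6.46 and 4.20 TPM against 1.02, 1.57 and 1.54 TPM. The *dd* stems at 3 d read 11.7, 4.55, 4.19 and 5.40 TPM in control and 0.663, 0.605 and 0.913 TPM after head removal, and at 10 d 5.07, 5.72, 4.88 and 5.35 TPM against 1.39, 0.790, 1.099 and 1.14 TPM. Control and head-removal samples did not overlap in any combination, and the log2 differences ran from -2.01 to -1.38. Its listing rested on control stems, so these tests are not independent of the listing. For *Sobic.001G102300* they ran from -1.04 to -0.69, again with no overlap in any combination. *Sobic.001G447400* and *Sobic.009G159900* fell in 3 of the 4 combinations, and *Sobic.008G168100* rose in 3.

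Within combinations, KNOTTED-1-LIKE 1 passed in *dd* stems at 10 d, and WOX13 passed in *dd* stems at both days. Neither passed in *DD* stems, and the treatment by genotype interaction did not pass for either (adjusted p = 0.671 and 0.751). *Sobic.001G106200* read 345, 479, 229 and 269 TPM in the *dd* control at 10 d and 112, 159, 136 and 213 TPM after head removal, with no overlap and a log2 difference of -1.07 ± 0.20 (adjusted p = 0.000335). In *DD* stems at 10 d it read 341, 458 and 332 TPM in control and 230.0, 239 and 249 TPM after head removal, which also do not overlap. The WOX13 gene *Sobic.003G336600* read 30.1, 25.4, 30.6 and 36.1 TPM in the *dd* control at 3 d and 15.2, 9.21 and 18.3 TPM after head removal (log2 difference -1.09 ± 0.20, adjusted p = 0.000661). In *DD* stems at 3 d it read 32.4, 29.3, 23.2 and 28.1 TPM against 21.4, 16.2, 19.3 and 23.995 TPM, where 1 head-removal sample lay above the lowest control sample.

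One gene changed in a single combination from a level near 0. *Sobic.001G468400*, a homeobox gene of no stated family that was chosen after its values were seen, read 0.0753, 0.661 and 0.229 TPM in the *DD* control at 10 d and 7.31, 1.72 and 14.8 TPM after head removal. The 3 head-removal samples lay above the 3 control samples but differed widely among themselves (log2 difference 2.45 ± 0.53, adjusted p = 0.0023). Elsewhere it exceeded 3 TPM only in replicate 4 of *dd* head removal (5.21 TPM) and of the *dd* control (4.02 TPM), both at 10 d. Every listed gene had more than 3 TPM in at least 2 samples, so its tests of treatment and day are not independent of its listing. It was higher in all 4 combinations, but the treatment test over all stems was not passed in limma (adjusted p = 0.02).

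**Figure D3:**
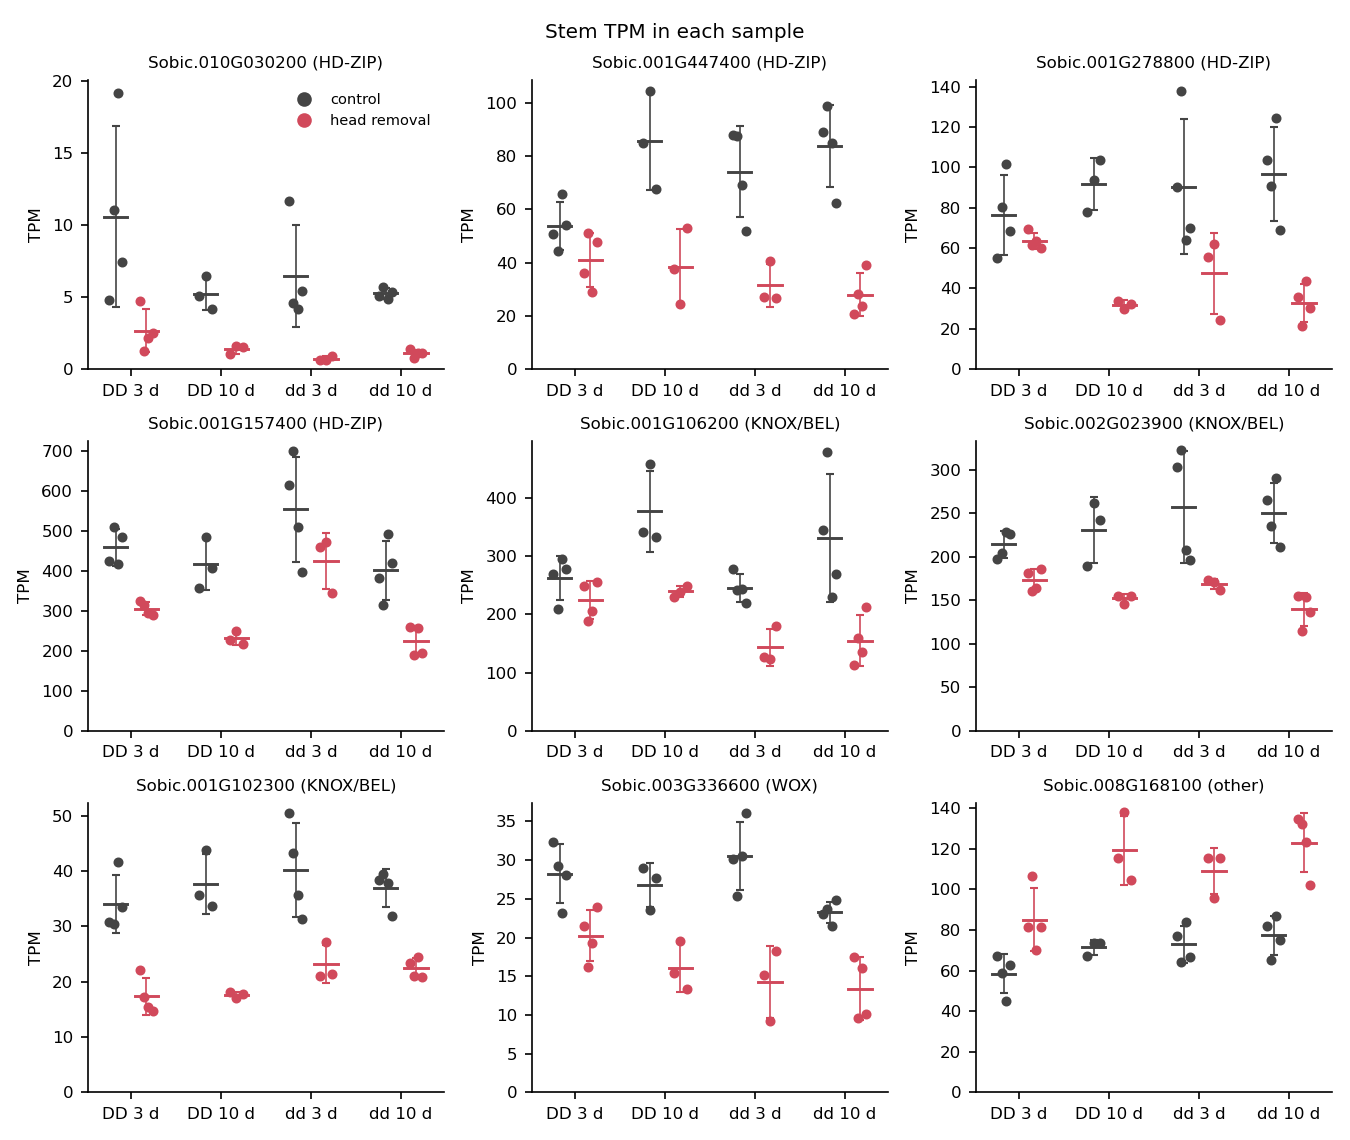
Stem TPM (y axis, linear) of selected homeobox genes in every sample, by genotype and day (x axis), with control and head-removal samples in different colours, a line at each group mean and bars of 1 SD. For *Sobic.010G030200* and *Sobic.001G102300* the control samples lie above the head-removal samples in each of the 4 combinations, and *Sobic.008G168100* shows the opposite order.

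Between genotypes, 12 of the 44 genes differed in stems. In *dd* stems 10 were lower (12.7% of all genes were lower) and 2 were higher (5.17% of all genes). The median log2 difference was -0.11 for the homeobox genes and -0.06 for all genes. Under another scaling of the samples the split moved from 2 higher and 10 lower to 4 and 7 with median-of-ratios scaling and to 4 and 8 with quantile normalization. KNOX/BEL genes made up 7 of the 12, with 2 higher and 5 lower, HD-ZIP genes 2, both lower, and the other genes 3, all lower. Of these last 3, 2 were homeodomain-like genes of the MYB type. The WOX gene did not pass.

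The 2 genes described as KNOX proteins by name differed between genotypes in opposite directions. *Sobic.001G526200*, the KNOTTED-1-LIKE 7 gene, had 8.08 to 38.2 TPM in the 14 *DD* stems (median 17.7) and 19.0 to 65.0 TPM in the 15 *dd* stems (median 30.01), with a log2 difference of 0.71 ± 0.16 (adjusted p = 0.00173). *Sobic.001G106200*, the KNOTTED-1-LIKE 1 gene, had 188 to 458 TPM in *DD* (median 253) and 112 to 479 TPM in *dd* (median 219), with a log2 difference of -0.40 ± 0.11 (adjusted p = 0.00856). Both pairs of ranges overlapped, and the second call was lost when any 1 of 20 of the 29 samples was left out. *Sobic.001G140200*, a KNOX or BEL gene named after its values were seen, had 63.1 to 130.2 TPM in *DD* (median 89.2) and 76.0 to 158 TPM in *dd* (median 131), a log2 difference of 0.43 ± 0.09 (adjusted p = 0.00121).

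Other genes were lower in *dd* stems. *Sobic.009G159900*, a KNOX or BEL gene named after its values were seen, had 109.9 to 237 TPM in *DD* (median 174) and 69.5 to 202 TPM in *dd* (median 126), a log2 difference of -0.49 ± 0.06 (adjusted p = 7.1e-06). The HALZ gene *Sobic.001G476300* had 19.0 to 42.0 TPM in *DD* (median 26.8) and 9.14 to 32.5 TPM in *dd* (median 17.8), a log2 difference of -0.64 ± 0.12 (adjusted p = 0.000473). It was therefore the HD-ZIP gene that rose after head removal and was lower in *dd*. The largest decrease among the 10 genes was that of *Sobic.004G270600*, a homeodomain-like gene of the MYB type, which was -0.69 ± 0.17 (adjusted p = 0.00287). The calls of *Sobic.003G356200* and *Sobic.006G202300* were lost without any 1 of 19 and of 12 samples.

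Between days, 15 of the 44 genes differed in stems. At 10 d 9 were lower (23.7% of all genes) and 6 were higher (8.84% of all genes), with a median log2 difference of -0.10 against -0.09 for all genes. Of these 6, *Sobic.001G468400* and *Sobic.002G421800* exceeded 3 TPM only in 10 d stems. They were listed through those samples, so their day tests are not independent of their listing. With median-of-ratios scaling the split was 7 higher and 4 lower, and with quantile normalization also 7 and 4, so the balance of directions turned with the scaling. The class III gene *Sobic.001G157400* had 290.5 to 699 TPM at 3 d (median 426) and 191 to 492 TPM at 10 d (median 286), with a log2 difference of -0.48 ± 0.09 (adjusted p = 0.000176). The ATHB-54-related gene *Sobic.004G251300* moved the other way, from 152 to 433 TPM at 3 d (median 286) to 213 to 712 TPM at 10 d (median 403), with a log2 difference of 0.65 ± 0.16 (adjusted p = 0.00171). Both overlapped between days.

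*Sobic.003G294600*, described as HAT3.1, which joins a PHD finger to a homeodomain, came closest to a full separation of the days. It had 46.9 to 63.9 TPM in the 15 stems at 3 d (median 52.9) and 32.9 to 48.1 TPM in the 14 stems at 10 d (median 39.8), a log2 difference of -0.40 ± 0.05 (adjusted p = 2.38e-06). *Sobic.009G159900* was the only homeobox gene past all 3 tests in stems, and it was lower after head removal, in *dd* and at 10 d. Over the 3 tests, 9 of the 44 genes passed none, 23 passed 1, 11 passed 2 and 1 passed 3. Of all stem genes 37% passed none, 42% passed 1, 17% passed 2 and 4.05% passed 3. The day calls of *Sobic.002G421800*, *Sobic.010G207500*, *Sobic.001G468400* and *Sobic.008G168100* were lost without any 1 of 19, 17, 9 and 3 samples.

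**Figure D4:**
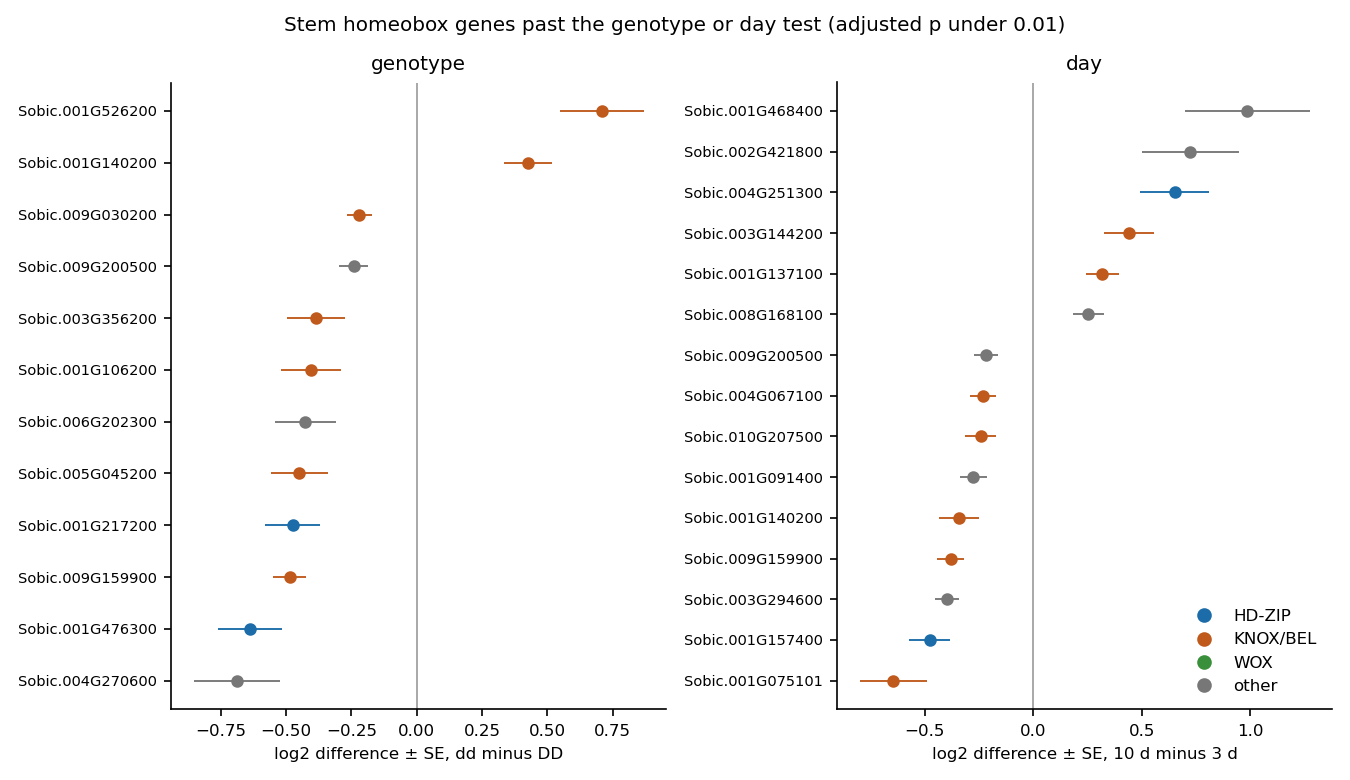
Log2 differences (x axis, log2(TPM + 1) scale, with standard errors) of the stem homeobox genes (rows) that passed the test for genotype, *dd* minus *DD*, and for day, 10 d minus 3 d, coloured by family. For genotype 10 points lie left of 0 and 2 right, and for day 9 lie left and 6 right. The day rises of *Sobic.001G468400* and *Sobic.002G421800* are not independent of their listing.

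In leaves fewer homeobox genes passed the tests. After head removal 5 of 39 genes fell and 0 rose in limma, with 1 higher gene at an unadjusted p under 0.05, and 7.05% of all leaf genes fell and 4.32% rose. The median log2 difference was -0.17 for the homeobox genes and -0.02 for all genes, and no homeobox gene differed by as much as 1 on the log2 scale. The count depended on single samples: it was 2 without replicate 1 of the *dd* control at 3 d, replicate 2 of *dd* head removal at either 3 or 10 d. It was 3 without replicate 3 of the *dd* control at 10 d, replicates 2 or 4 of the *DD* control at 3 d, replicates 2 or 3 of *DD* head removal at 3 d or replicate 2 of *DD* head removal at 10 d. Without both replicates 2 and 3 of *DD* head removal at 3 d, 2 genes passed.

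Of the 5 genes that fell in leaves, 4 were HD-ZIP genes. The ATHB-54-related gene *Sobic.004G251300* had 183 to 342 TPM in the 12 control leaves (median 289) and 161 to 268 TPM in the 12 head-removal leaves (median 223), a log2 difference of -0.36 ± 0.07 (adjusted p = 0.00137). The class IV gene *Sobic.006G223300* (HDG2) had 18.3 to 39.2 TPM in control (median 27.6) and 14.7 to 26.1 TPM after head removal (median 19.4), a log2 difference of -0.40 ± 0.10 (adjusted p = 0.00537). All of these ranges overlapped. The class III gene *Sobic.001G157400* had medians of 14.8 and 11.8 TPM and fell by 0.30 (adjusted p = 0.00201). The fourth, *Sobic.001G537300*, fell by 0.27 (adjusted p = 0.00583) and the KNOX or BEL gene *Sobic.003G356200* fell by 0.30 (adjusted p = 0.00995). The calls of *Sobic.006G223300*, *Sobic.001G537300* and *Sobic.003G356200* were lost without any 1 of 4, 8 and 20 of the 24 samples.

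The treatment test was not passed by other abundant leaf genes. *Sobic.007G126400* had medians of 381 TPM in control and 356 TPM after head removal, and *Sobic.010G207500* 228 and 254 TPM. The WOX13 gene *Sobic.003G336600*, which fell in stems, had 3.03 to 6.87 TPM in control leaves and 3.49 to 6.95 TPM in head-removal leaves, with a log2 difference of -0.01 (adjusted p = 0.948). Within each genotype and day, 0 of 39 leaf genes passed in limma, with 16 genes at an unadjusted p under 0.05 in *DD* at 3 d, 3 in *DD* at 10 d, 7 in *dd* at 3 d and 4 in *dd* at 10 d (0.781%, 0%, 0.0061% and 0% of all leaf genes passed). Both interactions gave 0 genes (0% of all leaf genes for each), with 4 and 2 genes at an unadjusted p under 0.05 for treatment by day and by genotype.

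*Sobic.004G251300* was the only leaf homeobox gene that differed by genotype, with 196 to 342 TPM in *DD* leaves (median 271) and 161 to 301 TPM in *dd* leaves (median 229.5). Its log2 difference was -0.29 ± 0.07 (adjusted p = 0.00939), and the call was lost without any 1 of 18 samples. Thus 1 gene was lower (0.738% of all leaf genes) and 0 were higher in limma (4.7% of all leaf genes), with 4 higher genes at an unadjusted p under 0.05. Between days 4 genes were lower at 10 d (3.69% of all leaf genes) and 1 was higher (17.8% of all leaf genes). The homeobox median was -0.07 and that of all genes 0.09. With median-of-ratios scaling the split was 1 higher and 10 lower, and with quantile normalization 1 and 9; the former scaling moved the median of all genes by -0.10. The day count was 3 without replicate 1 of the *dd* control at 3 d, replicate 4 of the *dd* control at 10 d, replicate 3 of the *DD* control at 3 d, replicate 4 of the *DD* control at 10 d or replicate 2 of *dd* head removal at 10 d.

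Of the 5 leaf genes that differed by day, 3 were class III or IV HD-ZIP genes. *Sobic.007G065300*, a class IV gene described as HDG2, had 11.3 to 26.2 TPM at 3 d (median 17.6) and 7.57 to 20.5 TPM at 10 d (median 10.6), a log2 difference of -0.66 ± 0.12 (adjusted p = 0.000235). *Sobic.001G157400* was lower at 10 d in leaves as in stems, by 0.39 on the log2 scale (adjusted p = 0.000115). All 5 class IV genes had the lower mean log2 level at 10 d and 2 of them passed. The gene that was higher at 10 d was *Sobic.001G049800*, described as a SIX-type homeobox gene, with 0.922 to 4.05 TPM at 3 d (median 1.89) and 2.00 to 7.91 TPM at 10 d (median 4.51), a log2 difference of 0.85 ± 0.13 (adjusted p = 9.67e-05). The day ranges of these genes overlapped.

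Among the 30 genes listed in both organs, 12 passed the treatment test in stems and 4 in leaves. *Sobic.001G157400*, *Sobic.001G537300* and *Sobic.003G356200* passed in both, and all 3 were lower after head removal in each organ. Of all genes listed in both organs, 4.64% passed the treatment test in both, 1.12% the genotype test and 6.59% the day test. For genotype 7 passed in stems, 1 in leaves and 0 in both. For day 9 passed in stems, 3 in leaves and 2 in both, of which 1 had the same direction. The difference between organs was not tested, because stems and leaves were fitted separately.

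Genes that act with or after homeobox proteins were counted from lists drawn by description. After head removal 23.5% of all stem genes fell and 14.4% rose, so counts on lists this short are not read as results about the lists. OVATE proteins, which bind KNOX and BEL proteins and repress transcription, gave 1 gene higher and 2 lower of 4 in stems after head removal, with *Sobic.006G187600* at a log2 difference of 1.77 and *Sobic.003G041600* at -1.76. *Sobic.006G187600* also passed the treatment by day test, with a difference 1.39 higher at 10 d than at 3 d on the log2 scale (adjusted p = 0.00868). Of 4 gibberellin oxidase genes, the gene for a gibberellin 2-oxidase type enzyme, *Sobic.003G300800*, rose by 2.96 (adjusted p = 4.98e-13) and *Sobic.004G329100* fell by 0.58. Enzymes of the 2-oxidase type inactivate gibberellin. Of 4 cytokinin genes 2 fell, both of the LOG type that releases active cytokinin. *Sobic.001G217700* fell by 2.69 (adjusted p = 3.54e-07) and *Sobic.003G202200* fell by 1.02. In leaves, where the lists held 4 OVATE, 2 gibberellin oxidase and 6 cytokinin genes, 1 gene passed, *Sobic.001G217700*, which fell by 1.43 (adjusted p = 0.00112). Of all leaf genes 7.05% fell and 4.32% rose.

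Markers of other cell types were counted in the same way in stems, where 23.5% of all genes fell and 14.4% rose after head removal. Of 2 photosynthetic markers 1 rose, *Sobic.005G042000*, by a log2 difference of 1.54. The other, the chlorophyll-binding gene *Sobic.006G235300*, went the other way at -0.36 and did not pass in limma (adjusted p = 0.0128). Their sum ran from 93.6 to 506 TPM in control and from 243 to 912 TPM in head-removal stems. It mostly followed *Sobic.005G042000*, since the 2 genes averaged 371 and 15.6 TPM. Of 10 secondary-wall genes 1 rose and 4 fell, with sums of 340 to 1029 TPM and 328 to 644 TPM. Of 41 core histone genes, markers of dividing cells, 7 rose and 4 fell, with sums of 2531 to 4056 TPM and 2219 to 5306 TPM. Of these 41 genes 8 were lower in *dd* (12.7% of all stem genes were lower) and 9 at 10 d (23.7% of all stem genes). The part of such cell types in the homeobox differences was not tested.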

How the data were processed

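Members and gene lists were chosen with earlier results of these data known. The authors deposited TPM values per gene, in 1 table for stems and 1 for leaves, and every listed gene had more than 3 TPM in at least 2 samples. The submitters' processing notes name FastQC, Trimmomatic, STAR, DESeq and DESeq2; the genome build is not given in the sources used here. The tables also hold the authors' fold changes and p-values, which were not used. TPM keeps no depth, so the depth behind each value is unknown. Columns were matched to samples by name: 29 of 32 described stem samples and 24 of 32 leaf samples; the other 3 and 8 were not analysed here.

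Because the files hold TPM and not counts, limma 3.58.1 in R 4.3.3 was fitted to log2(TPM + 1) over all genes of an organ, as a sum of effects of treatment, genotype and day, and with 8 group means for interactions and for treatment within each genotype and day. P-values were adjusted by the Benjamini-Hochberg method over all genes, with a threshold of 0.01. The pseudocount understates changes of low genes. The fit was checked on simulated data. The labels call the replicates biological. Replicate numbers did not pair samples: correlations of same-numbered samples' deviations had medians of -0.015 in stems and -0.059 in leaves.

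Members were genes whose description matched homeobox, homeodomain, their domain or family codes, or WUSCHEL, without zinc-finger homeodomain genes, including 2 that spell zinc-finger with a hyphen. Named members were those past a test with a log2 difference of at least 1, the 3 most abundant of each family in each organ, and the WOX gene. Every other member named was picked once its values were known, as an example within a count, whether or not the text repeats it. Marker and partner lists were drawn by description; little zipper proteins matched no gene in either table. Alternatives covered scaling, pseudocount, a mean of at least 3 TPM, variance settings, sample weights, the replicate block, thresholds, subsets and leaving out each sample. Gene names beyond the deposited descriptions, coordinates and sequences are not used here, since the identifiers matched no entry of the gene table at hand.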

Additional observations from a re-analysis of the deposited data

Results flagged for a closer look

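The HD-ZIP gene *Sobic.010G030200* read 11.7 TPM in replicate 1 of the *dd* control stems at 3 d, whereas the other 3 samples of that group read 4.19 to 5.40 TPM, so this sample lay far from the others relative to the spread of its group. Without any 1 stem sample, the treatment difference of this gene stayed between -1.71 and -1.55 on the log2 scale. Such a gap was looked for in 90 groups of 4 samples, of which chance marks about 1 in 20.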

How the results depend on the processing

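No called gene changed direction in 2465 comparisons of a call with an alternative, and 27 of 59 calls were kept under every alternative. The looser threshold and the variance settings leave the log2 differences as they are, so those comparisons could not change a direction. Leaving out 1 sample at a time gave 21 to 22 stem genes for treatment, 9 to 14 for genotype, 11 to 16 for day and 0 to 0 for each interaction, and in leaves 2 to 7, 0 to 2, 3 to 7 and 0 to 0. Within combinations it gave 1 to 3 (*DD*, 3 d), 2 to 11 (*DD*, 10 d), 4 to 12 (*dd*, 3 d) and 9 to 15 (*dd*, 10 d) in stems, and 0 to 1 in *DD* leaves at 3 d and 0 to 0 in the others. All 21 stem treatment calls, 9 of 12 genotype and 11 of 15 day calls held without any 1 sample, and in leaves 2 of 5, 0 of 1 and 3 of 5.

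With sample weights, 2 stem genes passed treatment by day, 5 passed in *DD* at 3 d and 20 in *dd* at 10 d, and in leaves 8 passed for treatment, 8 for day and 6 in *DD* at 3 d. At an adjusted p under 0.05, 20 stem genes passed for genotype, 6 in *DD* at 3 d, 20 in *DD* at 10 d and 18 in *dd* at 3 d, and in leaves 10 for treatment, 5 for genotype, 14 for day and 5 in *DD* at 3 d. With a log2 difference of at least 1 also required, 3, 0 and 0 stem genes remained for treatment, genotype and day, and 0 in leaves for each. Stem treatment gave 11 genes in 3 d samples only and 11 in *DD* samples only, and leaf treatment 0 in 3 d, 10 d, *DD* or *dd* samples only and 2 without replicates 2 and 3 of *DD* head removal at 3 d. Without replicates 3 and 4 of the *dd* control at 10 d, 22, 9 and 13 stem genes passed for treatment, genotype and day. Leaf genotype gave 2 genes with median-of-ratios scaling, 3 with quantile normalization, 0 without a variance trend and 0 with 8 group means, and leaf day 11 and 10 with the 2 scalings. Keeping the 2 zinc-finger genes spelled with a hyphen, chosen after seeing the data, gave 2 leaf genes for genotype and 1 in *DD* leaves at 3 d. The causes were not tested.

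With the replicate number as a block, 21, 9 and 13 stem genes passed for treatment, genotype and day, and 3, 2 and 6 leaf genes, although the numbers did not pair the samples.

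TPM without depth limits what can be said of genes under 10 TPM.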
